A study of Mus musculus with 12 samples.

Results

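The collagens, laminins and integrins of the mouse brain were followed in the hippocampus and cortex of aged 3×TgAD mice given amitriptyline (AMI) or vehicle. The genes were taken by symbol alone: every symbol made of Col, digits, a and digits, every Lama, Lamb or Lamc followed by a digit, and every symbol that begins with Itga or Itgb and a digit. This gave 67 genes of the 18097 named on the array: 36 collagen chains, 9 laminin chains, 19 integrin chains and 3 integrin-binding proteins (Itgb1bp1, Itgb1bp2 and Itgb3bp), which share the prefix and are not integrins. The 67 genes had 102 of the 25697 probes, and each gene was read from its brightest probe over the 12 arrays. Integrin chains named by a letter, such as Itgav and Itgam, fall outside the rule and were counted among the partner genes below.

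All mice were males of the 3×TgAD line, which carries human APP and tau transgenes driven by the neuronal Thy1 cassette on a mutant presenilin-1 knock-in background, and no mice without these alleles were part of the comparison. They were 14 months old at the start and 18 months old at sampling. The AMI groups received 100 µg of the drug per g of body weight in the drinking water for 4 months, and the vehicle groups received plain water. By the methods of the study, both groups were also given BrdU by intraperitoneal injection during the treatment. Each tissue and treatment had 3 Illumina bead arrays of total RNA, and the labels do not say whether the arrays of a group came from separate mice, so p-values measure only the spread between these samples.

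Collagens are trimers of chains that wind into a triple helix, and laminins are trimers of an alpha, a beta and a gamma chain. In the brain they are known chiefly from the basement membranes around blood vessels, beneath the meninges and under the choroid plexus, where the network of collagen IV and the network of laminin are joined by nidogen and perlecan. Integrins are receptors made of 1 alpha and 1 beta chain that span the cell membrane, bind these matrix proteins outside the cell and couple them to the actin cytoskeleton within. In Alzheimer models the vascular basement membrane is of interest because amyloid can gather along it, and Col25a1, a collagen anchored in the neuronal membrane, sheds an ectodomain that is found in plaques.

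The triple helix is built from Gly-X-Y units, each opened by a glycine, and this repeat can be read directly in array probes that lie in the coding sequence. A probe of Col7a1 and a probe of Col25a1 are shown for that repeat, with the 5 glycine codons of each 50-base probe in capitals.
Col7a1: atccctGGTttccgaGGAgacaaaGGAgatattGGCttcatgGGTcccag
Col25a1: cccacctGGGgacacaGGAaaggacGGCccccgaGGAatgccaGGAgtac
Neither was the brightest probe of its gene, and both were above background on 0 of the 12 arrays.

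Some of the collagen chains with the largest cortical differences below lie in neighbouring pairs. None of those differences passed adjustment, and their relation to the pairing was not tested. Col4a1 and Col4a2 are transcribed in opposite directions on chromosome 8. By the transcript starts of Col4a2 (+ strand) and Col4a1 (- strand) in the RefSeq promoter table, they share 22 bases, at chr8:11312805-11312826 in GRCm38.p6. These bases lie after both starts, so they are not a spacer between the genes. The 22 bases hold for those starts only, since by the outermost RefSeq ends the overlap is 85 bases. The 22 bases are printed on the + strand with the 1 GC box (GGGCGG) in capitals.
Col4a1 and Col4a2: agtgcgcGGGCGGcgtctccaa

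Col6a1 and Col6a2 lie one after the other on the - strand of chromosome 10, each with its own start. The 250 bases before each start are shown because these chains join in 1 protein, collagen VI, and are set side by side in the cortex below. They span chr10:76726045-76726294 for Col6a1 and chr10:76623631-76623880 for Col6a2 (- strand, GRCm38.p6, RefSeq), and each was searched on both strands for 3 motifs, with matches in capitals. The first was the GC box, GGGCGG, as above. The second was the CCAAT box, searched by those 5 letters. The last was the TATA box, spelled TATAAA.
Col6a1: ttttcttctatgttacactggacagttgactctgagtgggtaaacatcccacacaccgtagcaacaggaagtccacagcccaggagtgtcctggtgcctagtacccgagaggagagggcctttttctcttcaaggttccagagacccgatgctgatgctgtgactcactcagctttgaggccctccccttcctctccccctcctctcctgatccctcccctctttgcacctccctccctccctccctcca
Col6a2: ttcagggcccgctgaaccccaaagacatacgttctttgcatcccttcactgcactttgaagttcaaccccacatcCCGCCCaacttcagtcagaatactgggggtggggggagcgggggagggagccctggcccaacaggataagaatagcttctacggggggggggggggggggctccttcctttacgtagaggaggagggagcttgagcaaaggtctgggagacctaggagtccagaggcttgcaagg
The Col6a1 window held 0 of the 3 motifs, and the Col6a2 window held 1 GC box, 0 CCAAT boxes and 0 TATA boxes. Among all 32851 RefSeq windows of that length, 32.7% held a GC box, 33.8% a CCAAT box and 12.4% a TATA box, and a match here is a description only. The array annotation, which names no genome build, places the probe of Col6a1 at chr10:76171757-76171806 and that of Col6a2 at chr10:76058944-76058993, both on the - strand. It places the probe of Col4a1 at chr8:11198790-11198839 on the - strand and that of Col4a2 at chr8:11448896-11448945 on the + strand. RefSeq promoter windows were at hand for 48 of the 67 genes.

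A smaller share of these genes than of all genes was above background. A gene was tested in a tissue when its probe had a detection p of at most 0.05 on at least 3 of the 6 arrays, which 27 of the 67 genes met in the hippocampus (40.3%, against 54.9% of all 18097 genes) and 32 in the cortex (47.8%, against 54.1%). Both tissues shared 26 of them, 34 were tested in neither, and 22 of those 34 were above background on no array. Of the 36 collagens 12 were tested in both tissues and 4 in the cortex only, of the 9 laminins 6 and 1, of the 19 integrins 6 and 1 with 1 more in the hippocampus only, and of the 3 binding proteins 2 in both. The interstitial collagen chains Col1a1, Col1a2 and Col3a1, the laminin chains Lama4 and Lamb1-1, and the leukocyte integrin chain Itgb2 were among the untested genes, so nothing is said about their level here. Mean signal over the 12 arrays was lowest for the probes of Col13a1 (48.1), Col9a3 (55.6) and Itga4 (56.8), each untested, and highest for those of Itgb1bp1 (501), Col4a1 (518) and Col6a1 (881), but a probe's brightness also depends on its own sequence, and levels are compared only within a gene. Values below are log2 signals after z normalization, so that 0 is the mean of an array and a difference of 1 is a 2-fold difference at the mean spread of the arrays.

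Hippocampal vehicle replicate 3 stood apart from the other arrays by its choroid plexus and fibroblast RNA. The summed level of 12 choroid plexus markers was 305 on that array and between 28.0 and 45.9 on the other 5 hippocampal arrays, and the sum of 15 fibroblast and meningeal markers was 97.9 against 35.4 to 43.2. The cortical arrays also varied, from 24.2 to 238 for the choroid plexus markers. Between 49% and 51.7% of the probes were above background on each array, and replicate arrays of a group correlated at 0.986 or more. Values that moved most when it was left out are given with and without it.

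In the hippocampus, AMI and vehicle arrays differed little over these genes, and the clearest differences were in integrin beta chains. Itgb4, which pairs with Itga6 in a laminin receptor, was lower with AMI by a log2 difference of -0.54, and Itgb5, which pairs with Itgav in a vitronectin receptor, by -0.20. The collagen VI chain Col6a1 had the largest difference upward, at 0.41. None of the 27 genes passed limma's adjusted p of 0.05, as was the case for 0% of all 13163 probes tested, and 1 of 27 (Itgb4, lower) had an unadjusted p of at most 0.05, against 2.35% of all probes in either direction and 0.904% lower. By the methods' t-test 1 of 27 (Itgb5) had such a p, against 3.67% of all probes, and 0 passed adjustment. Differences were below 0 for 12 of 27 genes, against 45% of all probes. The median difference of the 27 genes was 0.01, equal to the 0.01 of all probes, and 0.08 without vehicle replicate 3.

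Itgb4 read 0.89, 1.40 and 1.20 on the 3 vehicle arrays and 0.26, 0.86 and 0.74 on the 3 AMI arrays. Every AMI array lay below every vehicle array, by a narrow margin between AMI replicate 2 and vehicle replicate 1. The difference of -0.54 had an SE of 0.18, an unadjusted limma p of 0.0169 and an adjusted p of 1. A dimmer probe of Itgb4 gave -0.27 (SE 0.16, limma, unadjusted p = 0.137), and its groups overlapped. Without vehicle replicate 2 the difference of the brighter probe was -0.42 and its unadjusted p was 0.0679, and with median centring of the arrays the p was 0.0960. Without AMI replicate 1 the difference was -0.36. Of 11 oligodendrocyte markers tested 6 were lower with AMI at an unadjusted limma p of at most 0.05, with a median of -0.46 and 0 at an adjusted p of 0.05. Their summed level was 405, 288 and 218 on vehicle replicates 1 to 3 and 293, 162 and 231 on AMI replicates 1 to 3. Within each group this order was not that of Itgb4. Of 16 endothelial markers tested 2 were higher and 0 lower with AMI at the same unadjusted threshold, with a median of 0.11 and 3 below 0. The part of either list in the Itgb4 difference was not tested. In whole tissue, fewer cells of a type and less RNA per cell cannot be told apart.

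Itgb5 was listed as changed in the hippocampus by the study on these same samples, so its direction here is not independent evidence. The study's cut-offs were a z ratio of at least 1.5 either way, a p of at most 0.05 and a false discovery rate below 0.3. A z ratio is a difference divided by the SD of all differences. On limma p, 0 of 27 genes met these cut-offs here, as did 0% of all probes. Itgb5 read 1.79, 1.90 and 1.88 on vehicle arrays and 1.57, 1.76 and 1.64 on AMI arrays. The groups did not overlap, but the difference of -0.20 (SE 0.09) had an unadjusted limma p of 0.0648 and an adjusted p of 1. Col2a1, the main collagen of cartilage, was the third gene whose groups were apart, at -0.69, -0.63 and -0.67 with vehicle and -0.72, -0.79 and -0.72 with AMI. Its difference of -0.08 was smaller than its SE of 0.09, and its other probe gave 0.15. In all, 3 of 27 genes (11.1%) had groups that did not overlap, against 7.89% of all probes, and all 3 were lower with AMI, as were 3.52% of all probes. With 3 against 3 arrays an exact permutation test cannot go below 0.1, which is the value such a gene reaches.

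Replicate numbers were taken to pair the hippocampal arrays, although only number 1 stood clearly apart from unlike numbers. With the number as a block 3 of the 27 genes had an unadjusted p of at most 0.05, against 8.08% of all probes. Itgb4 was lower on the AMI array of each number, by -0.63, -0.53 and -0.46, with a blocked limma p of 0.00012 that was 0.390 after adjustment. Itgb5 differed by -0.22, -0.13 and -0.24 within numbers (blocked limma p of 0.0292, adjusted p = 0.609). Itga3, the alpha chain of a laminin receptor, differed upward by 0.28, 0.29 and 0.12 (blocked limma p of 0.0183, adjusted p = 0.608). Without the block Itga3 read -0.49, -0.13 and 0.01 with vehicle and -0.20, 0.16 and 0.13 with AMI, groups that overlapped, and its difference of 0.23 was 0.09 without vehicle replicate 1.

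The hippocampal difference of Col6a1 rested largely on 1 vehicle array. Col6a1 read 1.24, 2.01 and 2.21 with vehicle and 2.43, 2.22 and 2.05 with AMI, so that only vehicle replicate 1 was clearly below the rest. The difference was 0.41 (SE 0.23, limma, unadjusted p = 0.107) with all arrays and 0.13 without vehicle replicate 1. Its second probe gave 0.42 (SE 0.18, limma, unadjusted p = 0.0459, adjusted p = 1), with all 3 AMI arrays above all 3 vehicle arrays. Vehicle replicate 1 was also the lowest of the 6 arrays for Col4a1, Col4a2, Col5a1 and Itga3. Without it, the differences of Col5a1, a regulator of fibril width, and of Col4a2 turned from 0.17 to -0.06 and from 0.04 to -0.10.

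The collagen IV chains read 1.68, 1.98 and 2.0 with vehicle and 2.06, 1.95 and 2.14 with AMI for Col4a1, and 1.38, 1.75 and 1.83 with vehicle and 1.65, 1.74 and 1.68 with AMI for Col4a2. Both pairs of groups overlapped, with differences of 0.16 (SE 0.12) and 0.04 (SE 0.13), and that of Col4a1 was 0.06 without vehicle replicate 1. Col18a1, the source of the fragment endostatin, had the third largest difference downward, at -0.16 (SE 0.24). That value rested on vehicle replicate 3, the array rich in choroid plexus RNA, and was 0.14 without it. Col25a1 differed by 0.05 (SE 0.10).

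The 6 laminin chains tested in the hippocampus differed by -0.10 to 0.10, and the groups of each overlapped. Without vehicle replicate 3 they differed by 0.02 to 0.19: Lama1 turned from -0.10 to 0.13, Lamb2 from -0.08 to 0.11 and Lama2 from -0.07 to 0.02, and Lamc3 moved from 0.03 to 0.19. Lamc1, the gamma chain of most laminins, read 0.29, 0.75 and 0.75 with vehicle and 0.41, 0.72 and 0.96 with AMI, a difference of 0.10 (SE 0.17). Lama2, the alpha chain of the laminin known from muscle and vessel walls, read -0.56, -0.39 and -0.18 with vehicle and -0.79, -0.30 and -0.27 with AMI, a difference of -0.07 (SE 0.16). Both differences were smaller than their SE. The integrin-binding protein Itgb1bp1, which binds the inner tail of Itgb1, read 1.85, 1.93 and 1.79 with vehicle and 1.81, 1.67 and 2.0 with AMI, groups that also overlapped.

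**Figure D1:**
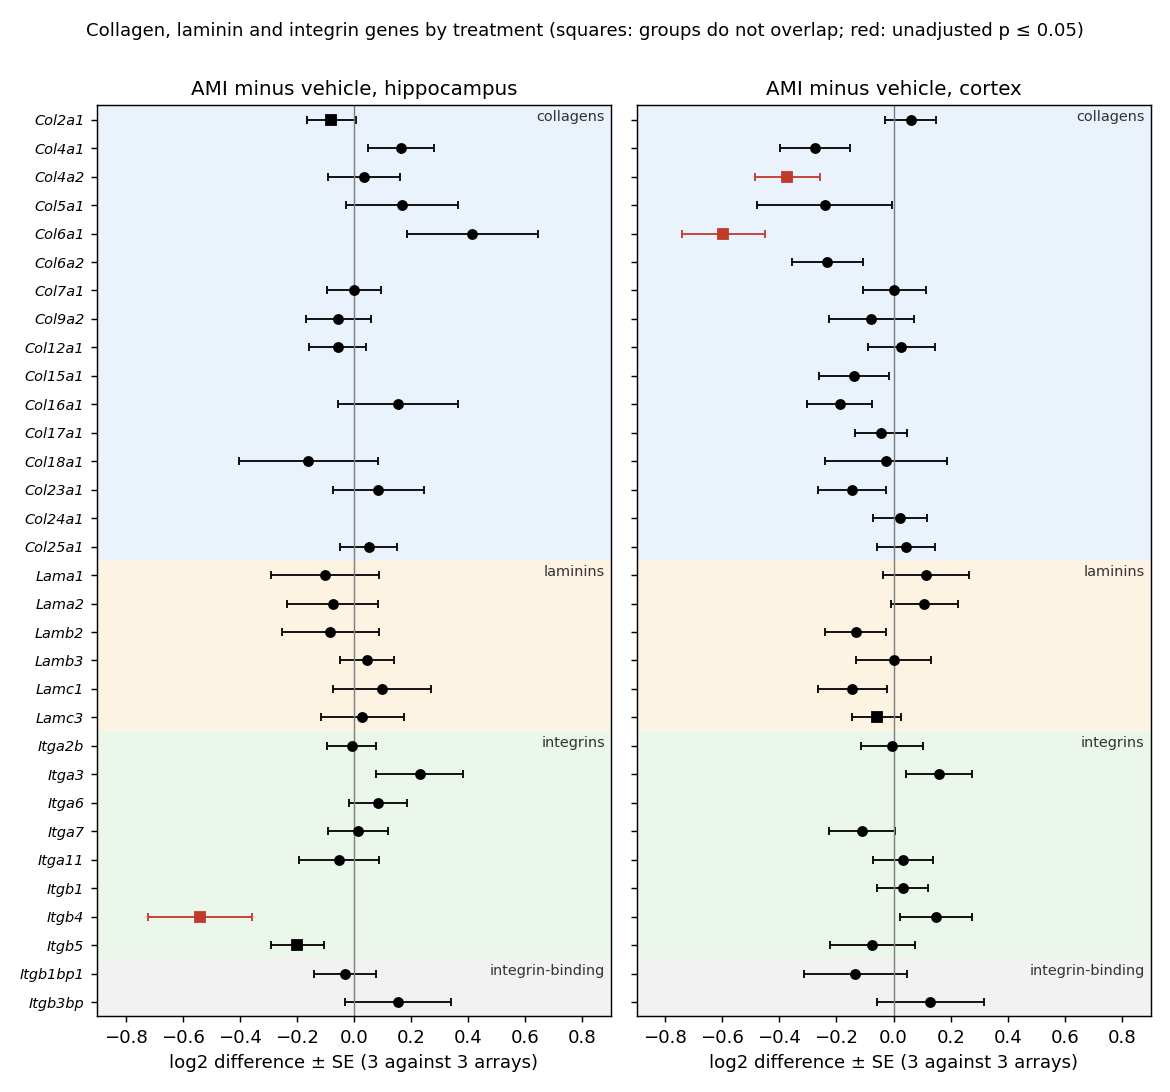
Log2 difference between AMI and vehicle arrays (x axis, ± SE) for the tested genes reported here in the hippocampus and the cortex. Squares mark genes whose 3 AMI and 3 vehicle arrays do not overlap, and red marks an unadjusted limma p of at most 0.05: Itgb4 at -0.54 in the hippocampus, and Col4a2 at -0.37 and Col6a1 at -0.60 in the cortex.

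In the cortex the 5 largest differences belonged to collagen chains, and all 5 were lower with AMI. Col6a1 was lower by a log2 difference of -0.60 and Col4a2 by -0.37, with Col4a1 at -0.27, Col5a1 at -0.24 and Col6a2 at -0.23. The Col5a1 value was -0.04 without AMI replicate 1, and that of Col6a2 was -0.12 without vehicle replicate 2. The laminins lay between -0.14 and 0.11 and the integrins between -0.11 and 0.16. None of 32 genes passed the adjusted p of 0.05 in limma (0% of 12944 probes did), and 2 of 32, Col6a1 and Col4a2, had an unadjusted p of at most 0.05, both lower, which is 6.25% against 6.28% of all probes in either direction and 1.92% lower. By the methods' t-test 3 of 32 (Lamc3, Col4a2 and Col6a1) had such a p, against 6.39% of all probes, and 0 passed adjustment. The median difference of the 32 genes was -0.04, against 0.02 for all probes, and 19 of 32 (59.4%) were below 0, against 42.9% of all probes.

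Col6a1 read 3.27, 3.64 and 3.17 on vehicle arrays and 2.61, 2.94 and 2.73 on AMI arrays. The groups were apart, and the difference of -0.60 (SE 0.15) had an unadjusted limma p of 0.00299 and an adjusted p of 0.756. The second probe of Col6a1 gave a difference of -0.30 (SE 0.16, limma, unadjusted p = 0.0887) with groups that overlapped. Col6a2, which joins Col6a1 in collagen VI, read -0.45, -0.18 and -0.56 with vehicle and -0.75, -0.61 and -0.51 with AMI. Its groups overlapped at AMI replicate 3, and the difference was -0.23 (SE 0.12, limma, unadjusted p = 0.0965). Col6a3, the other common chain of this collagen, was not analysed here.

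Col4a2 read 1.65, 1.79 and 1.57 with vehicle and 1.27, 1.46 and 1.16 with AMI. Every AMI array was below every vehicle array, and the difference of -0.37 (SE 0.11) had an unadjusted limma p of 0.0101 and an adjusted p of 0.756. Col4a1 read 1.80, 1.74 and 1.76 with vehicle and 1.34, 1.75 and 1.38 with AMI. AMI replicate 2 lay among the vehicle arrays and the other AMI arrays below them, which left a difference of -0.27 (SE 0.12, limma, unadjusted p = 0.0550, adjusted p = 0.781). Col4a1, Col4a2 and Col6a1 were listed as changed in the cortex by the study on these same samples, so their direction here is not independent evidence. By the study's cut-offs, on limma p, 0 of 32 genes passed here, against 0.0232% of all probes. With median centring of the arrays the unadjusted p of Col6a1 was 0.0886 and that of Col4a2 was 0.120.

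The third gene whose cortical groups were apart was Lamc3, a laminin gamma chain, at -0.50, -0.53 and -0.55 with vehicle and -0.61, -0.57 and -0.58 with AMI. That difference of -0.06 was smaller than its SE of 0.09. Groups did not overlap for 3 of 32 genes (9.38%), against 12.2% of all probes, and all 3 were lower with AMI, as were 4.13% of all probes. The largest differences upward were 0.16 (SE 0.12) for Itga3, 0.15 (SE 0.13) for Itgb4, whose dimmer probe gave -0.12, and 0.13 (SE 0.19) for Itgb3bp, a nuclear protein that binds an integrin tail. Itgb5 differed by -0.07 (SE 0.15), Itgb1, the beta chain of most laminin and collagen receptors, by 0.03 (SE 0.09) and Col25a1 by 0.04 (SE 0.10). The Itga3 value was 0.05 without AMI replicate 2 and that of Itgb4 was 0.03 without vehicle replicate 2. None of these passed an unadjusted p of 0.05.

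Other laminin chains of the cortex had overlapping groups. Lamc1 read 0.64, 0.87 and 0.95 with vehicle and 0.69, 0.81 and 0.53 with AMI, a difference of -0.14 (SE 0.12). Lamb2, the beta chain found with vessels and synapses, read 0.68, 0.42 and 0.56 with vehicle and 0.30, 0.46 and 0.50 with AMI, a difference of -0.13 (SE 0.11). Lama2 differed the other way by 0.11 (SE 0.12), as did Lama1 by 0.11 (SE 0.15). Differences of both signs stood within the family, and none passed an unadjusted p of 0.05.

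Among markers of other cells and regions, 2 of 6 striatal markers were lower with AMI in the cortex at an unadjusted limma p of at most 0.05 (median -0.28, 0 after adjustment), and their sums of 38.9 to 42.6 on vehicle arrays and 25.7 to 36.9 on AMI arrays did not overlap. Of 6 neuronal markers 1 was lower, Syn1 at -0.46. No marker of vessels or meninges passed downward, and the part of any of these in the collagen values was not tested. Of 16 tested endothelial markers 2 were higher and 0 lower with AMI at an unadjusted limma p of at most 0.05, and their summed level was 58.9 to 90.4 on vehicle arrays and 69.6 to 72.5 on AMI arrays. Of 9 pericyte and smooth muscle markers 0 passed in either direction, with sums of 14.1 to 20.0 and 14.2 to 21.7. All 14 tested fibroblast and meningeal markers had differences above 0, with a median of 0.20 and 0 at an unadjusted p of at most 0.05, and their sums were 34.3 to 52.7 and 46.7 to 71.4. Defining markers that were above background on fewer than 3 arrays of either tissue were Cdh5, Abcb1a, Abcg2 and Kdr (endothelium), Tagln, Kcnj8, Anpep and Cnn1 (pericytes and smooth muscle) and Islr (fibroblasts).

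**Figure D2:**
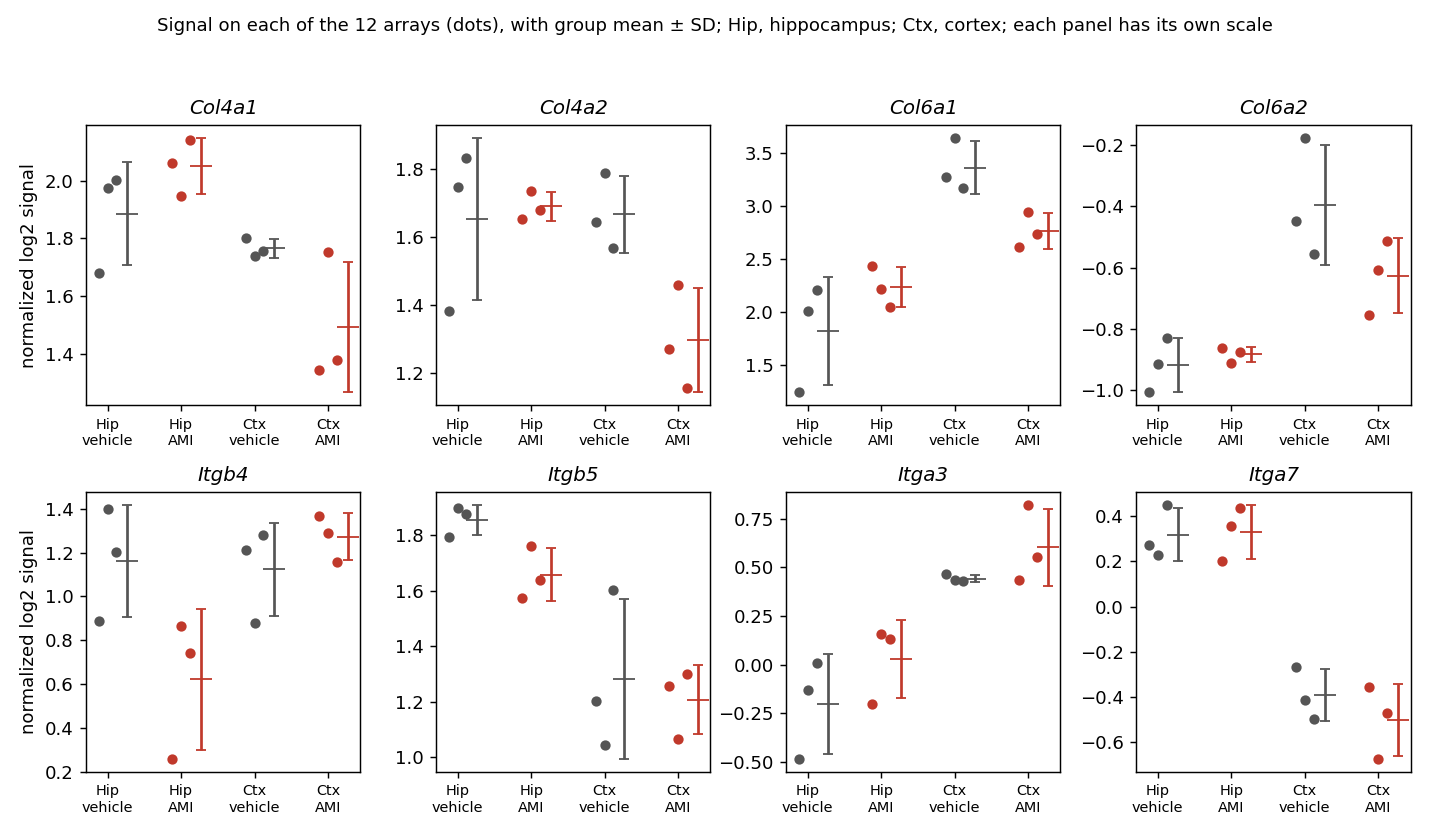
Normalized log2 signal (y axis, own scale in each panel) on each of the 12 arrays for 8 genes, grouped by tissue and treatment, with the group mean ± SD beside the dots. Col4a2 and Col6a1 are lower on all 3 AMI arrays than on all 3 vehicle arrays of the cortex, Itgb4 and Itgb5 are lower on the AMI arrays of the hippocampus, and the Itga7 arrays of the tissues lie apart.

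The treatment differences of the 2 tissues were set against each other in 1 fit of all 12 arrays. For Col6a1 the hippocampal difference exceeded the cortical one by 1.01 (SE 0.30, limma, unadjusted p = 0.00504), the largest such value among the 26 genes. The collagen IV chains also had a higher difference in the hippocampus, by 0.44 (SE 0.17, limma, unadjusted p = 0.0251) for Col4a1 and 0.41 (SE 0.17, limma, unadjusted p = 0.0358) for Col4a2. Itgb4 went the other way, at -0.69 (SE 0.24, limma, unadjusted p = 0.0132). Its dimmer probe was lower with AMI in both tissues, at -0.27 in the hippocampus and -0.12 in the cortex. These 4 of 26 genes (15.4%, against 3.03% of all 12430 probes) had an unadjusted p of at most 0.05, 3 of them higher in the hippocampus, as were 1.52% of all probes. None passed adjustment (adjusted p = 1 for each, and 0% of all probes), so no gene was shown to respond differently in the 2 tissues. The number at an unadjusted p of at most 0.05 was 2 without hippocampal vehicle replicate 1, hippocampal AMI replicate 3, cortical AMI replicate 1 or cortical AMI replicate 3. The share of all probes in those fits is not given here. Col5a1 had a value of 0.41 (SE 0.34), and the laminin alpha chains Lama1 and Lama2 had -0.22 (SE 0.26) and -0.18 (SE 0.21). The Lama1 value was 0.02 without hippocampal vehicle replicate 3, that of Lama2 was -0.01 without hippocampal AMI replicate 1, and that of Col5a1 was 0.18 without hippocampal vehicle replicate 1.

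More of these genes passed the test between the tissues, with 6 arrays against 6, than between the treatments, with 3 against 3. Of the 26 genes tested in both, 9 passed an adjusted limma p of 0.05 (34.6%, against 42.4% of all probes), 4 higher in the hippocampus (23.9% of all probes) and 5 lower (18.5%). The arrays of the tissues did not overlap for 5 of 26 genes, against 22% of all probes. Without hippocampal vehicle replicate 3 the number that passed the adjusted p was 10, with all 9 among them. The share of all probes in that fit is not given here. The collagens Col6a1, Col9a2, Col16a1 and Col5a1 and the laminin receptor chain Itga3 were lower in the hippocampus, and the integrin chains Itga7, Itgb5 and Itga11 and the collagen Col4a1 were higher there. No laminin passed among the 6 tested in both tissues, which differed by -0.20 to 0.06. The 2 tissues came in separate tables from different software exports, with a brightest signal per array of 35960 to 53320 in the hippocampus and 24570 to 27400 in the cortex, so tissue and array run cannot be told apart. With median centring the median of all probes was 0.21 instead of 0.02, the 9 genes kept their direction, and Col16a1 (adjusted p = 0.0967) and Col5a1 (adjusted p = 0.114) no longer passed. For the tissue labels themselves, 3 of 3 hippocampal markers were higher in the hippocampus at an adjusted limma p of 0.05. Of 8 cortical markers 6 were higher in the cortex and 1 higher in the hippocampus at that threshold.

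Col6a1 read from 1.24 to 2.43 over the 6 hippocampal arrays (median 2.13) and from 2.61 to 3.64 over the 6 cortical arrays (median 3.06). No hippocampal array reached the lowest cortical one, and the difference was -1.03 (SE 0.15, limma, adjusted p = 0.000148), or 2.04-fold. Its second probe gave -1.14 (SE 0.13, limma, adjusted p = 2.07e-05). Within vehicle arrays the tissue difference of Col6a1 was -1.54 and within AMI arrays -0.53, and it passed the adjusted p of 0.05 in each.

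Col9a2, a chain of a collagen that decorates cartilage fibrils, read from -0.54 to -0.19 in the hippocampus (median -0.48) and from 0.22 to 0.72 in the cortex (median 0.48). The tissues did not overlap, and the difference was -0.92 (SE 0.10, limma, adjusted p = 1.27e-05). Col16a1, another fibril-associated collagen, ranged from 0.97 to 1.84 and from 1.84 to 2.26, with a difference of -0.72 (SE 0.13, limma, adjusted p = 0.000740). Its tissues touched without overlap, since the highest hippocampal and lowest cortical arrays agreed to 2 decimals. Col5a1 was lower in the hippocampus by -0.58 (SE 0.17, limma, adjusted p = 0.0153), with ranges of -0.09 to 0.77 and 0.52 to 1.44 that overlapped. Within vehicle and within AMI arrays Col5a1 did not pass (adjusted p = 0.0644 and adjusted p = 0.120), and Col16a1 did not within AMI arrays (adjusted p = 0.0616).

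Among the integrin alpha chains, Itga7 and Itga3 both belong to laminin receptors with Itgb1 and differed in opposite directions. Itga7 read from 0.20 to 0.45 in the hippocampus (median 0.32) and from -0.67 to -0.27 in the cortex (median -0.44), a difference of 0.77 (SE 0.08, limma, adjusted p = 9.46e-06). Itga3 read from -0.49 to 0.16 (median -0.06) and from 0.43 to 0.82 (median 0.45), a difference of -0.61 (SE 0.10, limma, adjusted p = 0.000415). Neither gene had overlapping tissues, and each kept its direction and its call within the vehicle arrays and within the AMI arrays. Itga11, a collagen receptor chain, was higher in the hippocampus by 0.33 (SE 0.09, limma, adjusted p = 0.0101), with ranges of -0.43 to 0.06 and -0.71 to -0.42 that overlapped, and did not pass within vehicle (adjusted p = 0.0974) or within AMI arrays (adjusted p = 0.0786).

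Itgb5 ranged from 1.57 to 1.90 in the hippocampus and from 1.04 to 1.60 in the cortex, and was higher in the hippocampus by 0.51 (SE 0.09, limma, adjusted p = 0.000705). Only cortical vehicle replicate 3 reached the hippocampal range. Col4a1 ranged from 1.68 to 2.14 in the hippocampus and from 1.34 to 1.80 in the cortex, with a difference of 0.34 (SE 0.09, limma, adjusted p = 0.00695). That value came mainly from the AMI arrays, where it was 0.56 (SE 0.13, limma, adjusted p = 0.0125), since it was 0.12 (SE 0.11, limma, adjusted p = 0.498) within the vehicle arrays. Col4a2 differed by 0.19 (SE 0.09, limma, adjusted p = 0.0976) over all arrays, by 0.39 (adjusted p = 0.0261) within AMI arrays and by -0.01 (adjusted p = 0.959) within vehicle arrays. Endothelial markers were on balance lower in the hippocampus, with 13 of 16 below 0 and a median of -0.18. Of all probes, 45.9% were below 0. Among the 16 endothelial markers, 3 passed the adjusted limma p as lower and 1 as higher. Pericyte and smooth muscle markers went the other way, with 2 of 8 below 0 and a median of 0.08. Among these 8, 2 passed the adjusted limma p as higher and 0 as lower. The part of either list in the collagen IV values was not tested.

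**Figure D3:**
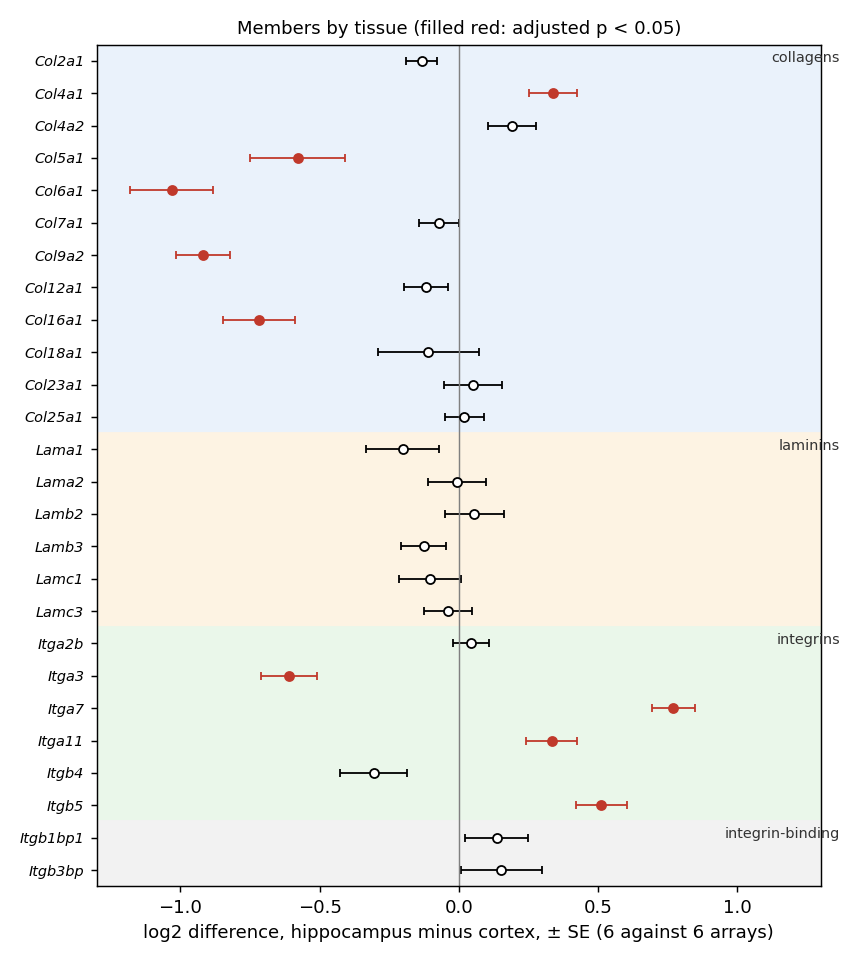
Log2 difference between hippocampus and cortex (x axis, ± SE, 6 arrays against 6) for the 26 genes tested in both tissues. The 9 filled red points passed an adjusted limma p of 0.05, from Col6a1 at -1.03 to Itga7 at 0.77, and the 6 laminins lie between -0.20 and 0.06.

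A further 6 genes were tested in the cortex only and 1 in the hippocampus only. Col6a2 was above background on 5 cortical and 0 hippocampal arrays and at least 1.19-fold brighter in the cortex when the hippocampal arrays are set at their lowest detected signal, with measured means of -0.90 and -0.51 in the hippocampus and the cortex. Col24a1, a fibrillar collagen, was above background on 1 hippocampal and 6 cortical arrays, with measured means of -0.90 ± 0.12 and -0.25 ± 0.07 (SD, n = 6 each). These genes entered through the tissue where they were brighter, so no test is given for them.

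For Col17a1, an epithelial membrane collagen, and Itgb1 the bound was 1.01-fold and 1.02-fold, and for Col15a1 the cortical mean did not exceed it. Itga6, the partner of Itgb4, was above background on 6 hippocampal and 2 cortical arrays, with measured means of -0.49 ± 0.11 and -0.78 ± 0.10 (SD, n = 6 each). Striatal markers, which neither tissue should hold at a high level, were higher in the cortex for 6 of 6 tested at an adjusted limma p of 0.05, with sums of 25.7 to 42.6 against 8.50 to 11.7. Microglial markers were higher in the hippocampus for 11 of 14 at the same threshold. Their part in the tissue differences of the matrix genes was not tested.

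Lama1, Col18a1, Lamb2 and Lamc3 were highest in the hippocampus on the array with most choroid plexus RNA, and in the cortex 1 of these 4 was. Lama2 and Col4a2 were also highest on that hippocampal array, as were Col5a1, Col7a1, Col9a2, Itga11 and Itga7, so this was not particular to basement membrane chains. Lamc1, Lamb3, Col4a1 and the other genes tested in the hippocampus were not. The share of all probes that were highest on that array is not given here. Lama1, a laminin alpha chain of epithelial and meningeal basement membranes, read 0.11 on hippocampal vehicle replicate 3 and between -0.62 and -0.31 on the other 5 hippocampal arrays. In the cortex its highest value, 0.10, was on AMI replicate 3, where the choroid plexus sum was 238. On hippocampal vehicle replicate 3 Col18a1 read 1.0, Lamb2 0.96 and Lamc3 -0.28, each the highest of the 6 hippocampal arrays. The others reached at most 0.43, 0.67 and -0.53. The other cortical values did not follow the order: Col18a1 was highest, at 0.87, on vehicle replicate 3 with a choroid plexus sum of 88.4, and Lamb2 and Lamc3 were highest, at 0.68 and -0.50, on vehicle replicate 1 with a sum of 158. Lama1 read -0.34 on that array. The choroid plexus markers Cldn2 and F5 were not tested in either tissue, and the part of this RNA in the laminin values was not tested.

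**Figure D4:**
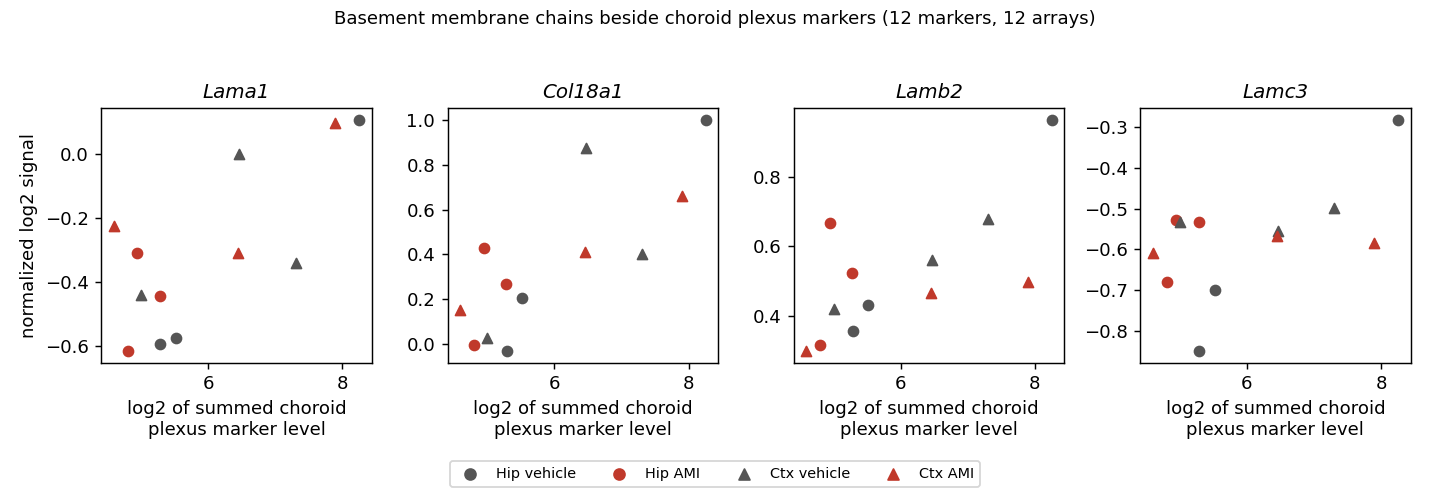
Normalized log2 signal of Lama1, Col18a1, Lamb2 and Lamc3 (y axis, own scale in each panel) against the log2 of the summed level of 12 choroid plexus markers (x axis) on each of the 12 arrays. Circles are hippocampal and triangles cortical arrays, and grey is vehicle and red AMI. The rightmost circle is hippocampal vehicle replicate 3, the highest hippocampal value in every panel. The panels hold genes named in the text as highest on that array, so its place follows from their choice. Lamc1, Lamb3 and Col4a1, which were not highest there, are not shown.

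The genes that work with these chains were read from 5 lists of 99 genes on the array: basement membrane and matrix glycoproteins, collagen synthesis and crosslinking, matrix proteases and their inhibitors, other matrix receptors, and the adhesion complex on the inner side of integrins. In the hippocampus 0 of 71 tested had an unadjusted limma p of at most 0.05 with AMI, and the median was -0.04. The largest differences there were -0.32 (SE 0.25) for Fbln1 and -0.30 (SE 0.13, limma, unadjusted p = 0.0540) for Adamts2, which trims procollagen. In the cortex 5 of 71 (7.04%, against 6.28% of all probes) reached it, all lower with AMI and 0 after adjustment: Bcan at -0.42 and Ncan at -0.34, which are brain proteoglycans, Sparc at -0.40, which binds collagen, Sdc4 at -0.34, a heparan sulfate receptor, and Rapgef1 at -0.31, an adhesion signalling protein. Itgav, the partner of Itgb5, had a cortical difference of 0.34 (SE 0.15, limma, unadjusted p = 0.0573). None of the 15 tested genes of collagen synthesis and crosslinking reached an unadjusted p of 0.05 in the cortex.

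Between the tissues 21 of 68 partner genes (30.9%, against 42.4% of all probes) passed the adjusted limma p, 12 of them higher in the hippocampus. Among these Src, a kinase recruited to integrin adhesions, was higher by 1.02 (SE 0.15), Sparcl1 by 0.64 (SE 0.11), Sdc4 by 0.63 (SE 0.09) and Loxl1, a collagen crosslinking enzyme, by 0.62 (SE 0.14). Zyx, an adhesion protein, was lower by -0.51 (SE 0.11).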

How the data were processed

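Total RNA of 12 samples was hybridized to Illumina MouseRef-8 bead arrays. The deposited tables hold, for every probe, the mean bead intensity and the p-value of its detection against negative control beads, exported by the authors with neither normalization nor background subtraction. The submitters' processing notes name BeadStudio 3.4 and GenomeStudio 1.1.1, and the file headers give BSGX 3.4.0 for the hippocampus and GSGX 1.1.1 for the cortex. After the study's methods, the log2 signal of each array was centred on its mean, divided by its SD over all 25697 probes and brought back to a log2 scale by a factor of 1.6 (the SD averaged over arrays). Within a tissue, AMI was set against vehicle without pairing, on probes detected at a p of at most 0.05 on 3 or more of its 6 arrays. Tissue and interaction came from 1 model of 4 group means over 12 arrays, on probes that met this in both tissues. All fits used limma (version 3.58.1, R 4.3.3) with moderated variances. Benjamini-Hochberg adjustment ran over all tested probes. The number of arrays limits the precision. The fits were tested on simulated data.

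Replicate numbers of the labels were taken to pair the hippocampal arrays, because same-numbered AMI and vehicle arrays deviated together from their group means (r = 0.61, 0.30 and 0.29 over probes). AMI replicate 3 correlated nearly as well with vehicle replicate 2 (r = 0.28), so numbers 2 and 3 were hardly told apart. Numbers were not taken as pairs in the cortex (r = -0.06, 0.33 and 0.33) or between the tissues (r from -0.35 to 0.09).

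Genes were named where they passed the adjusted p, had groups that did not overlap in a treatment comparison, were among the 3 largest differences each way, or form 1 protein with such a chain, with Col25a1, the extremes of mean signal and those the study listed. The genes, partner and marker lists were chosen with earlier results of these data known. Of the 67 genes 22 had other probes, 35 in all, of which 5 were above background often enough to test in a tissue. A summed marker level is the sum of 2 to the power of the normalized values. The values of 1 gene are not reported here, though it is in the counts. Alternatives were other normalizations, filters, variance settings, the replicate block, the methods' t-test and leaving out each array.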

Additional observations from a re-analysis of the deposited data

How the results depend on the processing

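Under every alternative run, including each array left out and the replicate block, 0 genes passed the adjusted p in either treatment comparison or in the interaction. Of 33 differences of single genes, 26 kept their sign under all alternatives. The signs that turned were in the hippocampus Col4a2 (-0.028 with array weights), Col2a1 (0.034 as the mean of its probes) and, with arrays left out in turn, Col5a1 (-0.060 to 0.37), Col18a1 (-0.37 to 0.14) and Col4a2 (-0.10 to 0.13). In the cortex they were Itgb3bp (-0.12 with array weights, -0.10 to 0.30 with arrays left out) and Itgb5 (0.057 and -0.19 to 0.086). The interaction of Lama1 ran from -0.35 to 0.015 with arrays left out. The cause was not tested.

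Genes at an unadjusted p of at most 0.05 in the hippocampus numbered 4 with array weights (9.91% of all probes passed), 0 with median centring (0.547%), 2 with neqc (4.76%), quantile normalization (4.41%) or no detection filter (2.39%), 3 with the replicate block (8.08%) and 0 to 3 with arrays left out. In the cortex they numbered 7 with array weights (22.8%), 0 with median centring (3.35%) and 4 with neqc (6.88%). With the replicate block they numbered 4 there (8.69%), though numbers were not taken as pairs in the cortex. In the interaction they numbered 1 with median centring (0.507%) and 2 to 5 with arrays left out. Shares of all probes are not given for the fits with an array left out. The number between tissues at an adjusted p was 14 of 33 with probes detected in either tissue (43.1% of all probes) and 15 of 67 without a filter (23.7%), with 22 unadjusted (33.1%). The 33 include 7 genes that entered through 1 tissue only.

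The median over the genes was, in the hippocampus, -0.032 without a filter and -0.057 to 0.081 with arrays left out. In the cortex it was -0.078 with detection at 0.01 on all 6 arrays and -0.12 with neqc. Between tissues it was 0.031 with array weights, -0.10 with either tissue, 0.022 with median centring, -0.17 with neqc and -0.11 to 0.0085 with arrays left out. In the interaction it was 0.18 with array weights, 0.086 with the strict filter, 0.12 with neqc, 0.084 with quantile normalization and -0.022 to 0.10 with arrays left out. The replicate block changed no other call. Genes near background are limited by signal, and 34 of the 67 could not be tested.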
